A study of Homo sapiens with 6 samples.

Results

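The genes described here are 44 genes of nucleolar ribosome biogenesis and RNA polymerase I (Pol I), chosen by symbol for what their products do and not for their values. Earlier results of these data were known when these genes and the other lists below were chosen. All 44 were found among the 63129 genes of the deposited expression table, and where a symbol was listed more than once (BOP1 and DKC1) the row with the higher mean was used. By role they comprise 3 core proteins of box C/D snoRNPs, 4 of H/ACA snoRNPs, 7 abundant nucleolar proteins and regulators, 11 small-subunit assembly factors, 12 large-subunit assembly factors and 7 subunits or initiation factors of Pol I.

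Expression was measured by RNA-seq in ERRAS cells, which are early-passage IMR90 human lung fibroblasts transduced with a retroviral vector for RasV12 fused to the ligand-binding domain of the estrogen receptor, so that tamoxifen activates Ras. Control mitotic cells (3 libraries) were left uninduced, and Ras-induced mitotic cells (3 libraries) had been induced for 4 days, at 100 nM tamoxifen by the sample labels (the study's methods give the dose in another unit). Both groups carried the transgene, grew in 3% oxygen under G418 selection, and were arrested in mitosis with 1 µM DME, an inhibitor of the spindle kinesin Eg5. Detached cells were then collected, so neither group is an untreated or a cycling population. The study states that the experiment was repeated independently, but the labels do not tie libraries to cultures, so the p-values measure the spread between these libraries, which may in part be technical.

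Ribosomes are built in the nucleolus. Pol I transcribes a single long ribosomal RNA precursor, snoRNPs guide its chemical modification (box C/D particles methylate riboses and H/ACA particles isomerize uridines), and a large set of assembly factors folds and cuts it into the small and the large subunit. In mitosis Pol I transcription is silenced and the nucleolus comes apart, and MYC is a textbook activator of many of these genes in growing cells. Poly(A) RNA was sequenced, so the values are levels of the mRNAs of these factors and not of ribosomal RNA.

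Values are FPKM (fragments mapped to a gene, scaled to its transcript length and to the size of the library), computed by the authors for each gene and library. Being per length, they allow levels to be compared between genes. Where a gene averaged 1 FPKM or more across all 6 libraries, limma was fitted to log2(FPKM + 1), and a gene was called higher or lower at a Benjamini-Hochberg adjusted p, over the 13993 genes tested, of 0.05 or under. Fold changes below are Ras-induced over control on this log2 scale, which understates the change of genes at low FPKM, and the adjusted p-values are limma's. The libraries' relative depth, read from the steps between low FPKM values, spanned 0.847 to 1.17 of the first control library, and no absolute depth is given.

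Fibroblast markers were abundant in every library, with sums over 10 genes of 5993 to 7088 FPKM in control and 4541 to 6045 FPKM in Ras-induced cells. Of these 3 were called lower, LUM (-2.01), COL1A2 (-1.30) and THY1 (-1.19), and 5 of 10 had lower groups that did not overlap, beside 5.67% and 12.8% of all tested genes. Of 6 epithelial markers CDH1 was under 1 FPKM in all libraries, and the summed level was 24.6 to 38.5 FPKM in control and 23.6 to 27.8 FPKM in Ras-induced cells, with KRT5 at a mean of 11.6 FPKM and KRT14 at 9.32 FPKM. Of 5 endothelial markers 4 were under 1 FPKM in all libraries and TEK was called lower (-1.45), and of 6 leukocyte markers 5 were under 1 FPKM and CD68 was not called. Of 8 mitotic genes 5 were called lower and all 8 had lower groups that did not overlap (the same background shares apply), and their summed level was 1974 to 2088 FPKM in control and 1537 to 1709 FPKM in Ras-induced cells. HRAS, the construct's coding sequence, was at 1174, 1176 and 1140 FPKM in control and 1439, 1847 and 1473 FPKM in Ras-induced cells (adjusted p = 0.0431, but 0.0925 after upper-quartile scaling). Tamoxifen acts on the fusion protein, so the mRNA level of HRAS does not test the labels. In bulk samples fewer cells of a type and less RNA per cell cannot be told apart.

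Promoter sequences (RefSeq, GRCh38.p14, 250 bases before to 50 after the gene start) were matched by symbol for 36 of the 44 genes; BOP1, DDX18, NOLC1, NOP58, POLR1E, RRP12, RRP1B and RRS1 had none. They were searched on both strands for the E-box core CACGTG, which MYC and related factors bind, the ETS core CCGGAAG, which ETS factors downstream of Ras can bind, and a motif of NRF1 type, which is GCGC, any base and then TGCGC. A match to any of these motifs is not a match to another, though neighbouring matches can share a base, as the E-box and the NRF1-type motif of NAT10 do. An E-box stood in 12 of 36 promoters (33.3%), against 7.43% of all 27305 promoters and 10.2% of the 8654 promoters of tested genes. The ETS core stood in 13 of 36 (36.1%), against 10.7% of all and 20.5% of tested genes' promoters. The NRF1-type motif stood in 12 of 36 (33.3%), against 6.28% and 12.4%. Below are the matches of genes whose mRNA was called higher in Ras-induced cells, in windows of 30 bases read 5′ to 3′ on the gene's strand, with the motif in capitals. Positions count from the gene start of the promoter set, and coordinates are those of the window's exact match in GRCh37 (hg19). That start differs from the end of the annotated gene span for some genes. For POLR1C, NOP16 and PES1 it lies inside the span, so a negative position there is not outside the annotated gene.
NOP10, E-box at -170, chr15:34635490-34635519, minus strand: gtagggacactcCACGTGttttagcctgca
NOP10, ETS core at -42, chr15:34635362-34635391, minus strand: aggagagagagaCTTCCGGttatgcaggaa
NOP10, E-box at -11, chr15:34635331-34635360, minus strand: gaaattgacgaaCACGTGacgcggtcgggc
NOP16, ETS core on both strands at -19, chr5:175815599-175815628, minus strand: ttgtgcacgcCTTCCGGAAGgagtttgtta
POLR1C, ETS core at -212, chr6:43484603-43484632, plus strand: agatgtgggcctCCGGAAGgtagacgtcca
POLR1C, ETS core on both strands at -127, chr6:43484690-43484719, plus strand: acaaaagcaaCTTCCGGAAGctggggacgt
PES1, E-box at 14, chr22:30987867-30987896, minus strand: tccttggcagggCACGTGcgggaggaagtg
MYBBP1A, E-box at 28, chr17:4458635-4458664, minus strand: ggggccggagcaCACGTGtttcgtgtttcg
MYBBP1A, NRF1-type at -18, chr17:4458678-4458707, minus strand: acaaaccggtGCGCATGCGCcgtgccctga

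The next matches are from genes whose mRNA was not called, shown because the same letters also sit within 30 bases of the gene start there.
FBL, E-box at 7, chr19:40336996-40337025, minus strand: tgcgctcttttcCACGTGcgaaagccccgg
RRP9, E-box at -5, chr3:51975908-51975937, minus strand: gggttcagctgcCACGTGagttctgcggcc
UTP20, E-box at -10, chr12:101673861-101673890, plus strand: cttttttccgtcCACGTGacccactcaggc
NAT10, E-box at -15, chr11:34127149-34127178, plus strand: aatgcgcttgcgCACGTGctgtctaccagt
GAR1, ETS core at -28, chr4:110736626-110736655, plus strand: attgccgcagcaCTTCCGGgacgtcgtgct
DDX10, NRF1-type at -16, chr11:108535770-108535799, plus strand: ttctgagttcGCGCATGCGCctctgtgcgt
An E-box stood in 3 of the 6 called genes that have a promoter sequence and in 9 of the 30 that were not called. The ETS core stood in 3 of 6 and 10 of 30, and the NRF1-type motif in 1 of 6 and 11 of 30. A match describes letters and shows no binding.

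Ras induction was accompanied by higher mRNA levels of 7 of the 44 genes and lower levels of none. All 44 passed the filter and were tested, and the 7 called higher (15.9%) stand beside 11.0% of all tested genes called higher and 5.67% called lower. Without adjustment, limma's p was under 0.05 for 14 that were higher (31.8%, beside 22.9% of all tested genes) and 0 that were lower (beside 10.7%). Those 7 were NOP10, a core H/ACA protein, POLR1C, a Pol I subunit, the large-subunit factors NOP16, PES1 and BOP1, the small-subunit factor UTP15 and the nucleolar regulator MYBBP1A. The largest difference was that of NOP10, at 0.80, and the other 6 lay between 0.35 and 0.62. The median over all 44 was 0.22, with a range from -0.14 to 0.80, beside 0.10 over all tested genes. A log2 fold change above 0 was found for 37 of the 44 genes and for 62.7% of all tested genes. The 3 libraries of each group did not overlap for 14 genes that were higher in Ras-induced cells (background 27.1%) and for 2 that were lower (background 12.8%), which makes 16 separate genes beside 39.9% of all tested genes.

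The share of calls in each direction turned on how the libraries were scaled. After scaling to a common upper quartile, 3 of the 44 were called higher (6.82%, background 6.58%, with 7.87% of all tested genes lower), and their median was 0.11 beside 0.0047 over all tested genes. After quantile normalization 3 were called higher as well (background 7.46%, with 7.93% lower). The 3 were NOP10, NOP16 and POLR1C in both. By these counts the share of members called higher was close to the background under either scaling. None of the 44 was called lower, beside 7.87% and 7.93% of all tested genes.

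**Figure D1:**
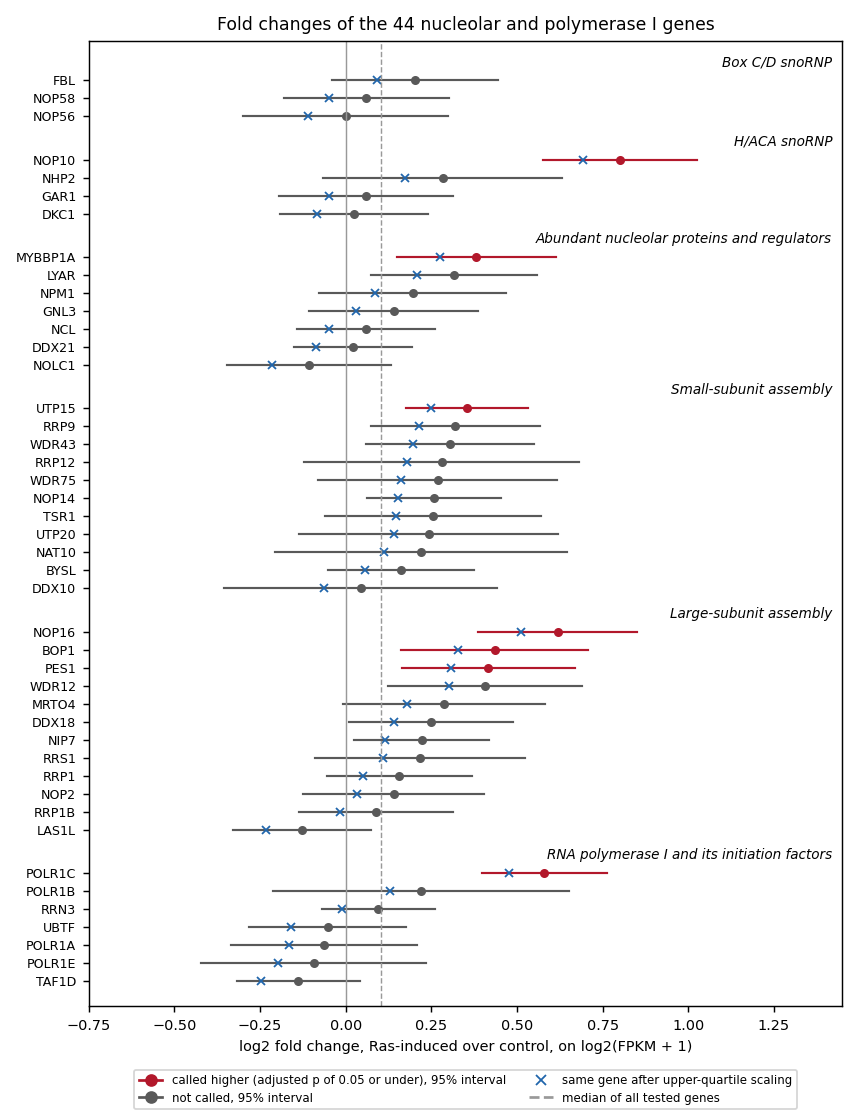
Log2 fold change (Ras-induced over control, on log2(FPKM + 1)) of each of the 44 genes by role, with its 95% interval; red marks the 7 genes called higher, crosses the same genes after upper-quartile scaling, and the dashed line the median of all tested genes at 0.10. NOP10 at 0.80, NOP16 at 0.62 and POLR1C at 0.58 stand furthest to the right, and no gene called lower is seen.

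As levels, the 44 genes ranged from 4.66 FPKM for POLR1B, the second-largest catalytic subunit of Pol I, to 911 FPKM for NPM1, the nucleolar histone and ribosome chaperone nucleophosmin, as means over the 6 libraries. Their median lay at percentile 72.2 of all tested genes. NPM1 has 49 named pseudogenes, between which reads could be split or shared. The assembly factors lay lower than the structural nucleolar proteins, with medians of 22.8 FPKM for the small-subunit and 32.3 FPKM for the large-subunit factors, 58.8 FPKM for the abundant proteins and 93.6 FPKM for the box C/D proteins. Pol I subunits and factors had the lowest median, 21.8 FPKM.

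**Figure D2:**
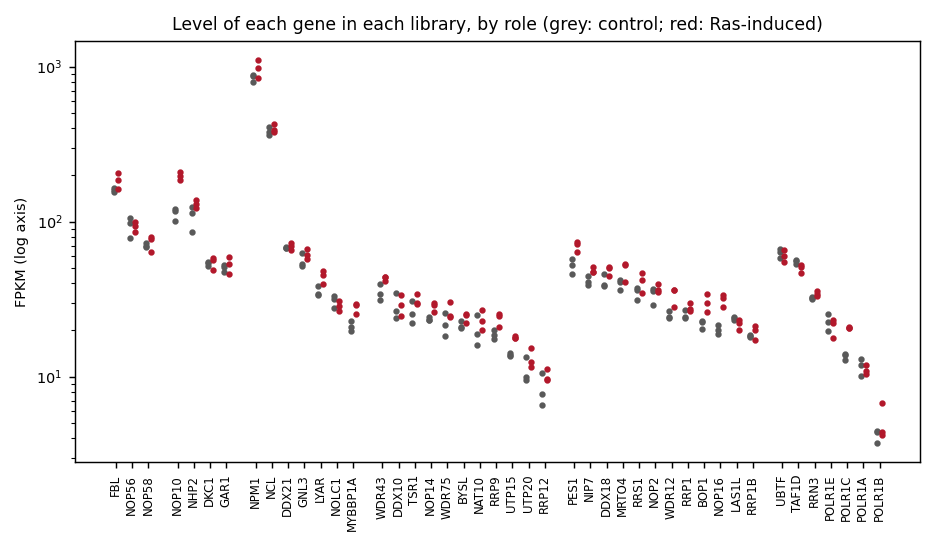
FPKM of the 44 genes in each library on a log axis, grouped by role and ordered by level within it, with grey points for the 3 control and red for the 3 Ras-induced libraries. NPM1 is highest at 793 to 1104 FPKM and POLR1B lowest at 3.74 to 6.79 FPKM, and red and grey points overlap for most genes.

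None of the 3 box C/D snoRNP proteins was called, and none had an unadjusted limma p under 0.05. FBL, the methyltransferase fibrillarin, was the most abundant, at 154, 164 and 160 FPKM in control and 162, 206 and 185 FPKM in Ras-induced cells. The groups overlapped, and the difference was 0.20 (SE 0.10, 95% interval -0.04 to 0.44, adjusted p = 0.214). NOP56 and NOP58, the paired scaffold proteins of the particle, differed by less than the spread between libraries (-0.00015 and 0.060), and FBL exceeded the 0.10 median of all genes while they did not.

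Among the 4 H/ACA proteins NOP10 was called. NOP10, a small protein that holds the catalytic subunit in place, was at 118, 121 and 101 FPKM in control mitotic cells and 186, 209 and 198 FPKM in Ras-induced mitotic cells. Every Ras-induced library was above every control library. The means were 113 ± 10.6 and 198 ± 11.5 FPKM (SD, n = 3), a ratio of 1.75, and the log2 difference was 0.80 (SE 0.09, 95% interval 0.58 to 1.03, adjusted p = 0.0045). The gene lies at chr15:34631360-34635381 on the minus strand. The annotation has no other protein-coding or long noncoding RNA gene over its exons, and other gene types were not checked.

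The other H/ACA members were not called. NHP2, which binds the guide RNA, was at 114, 125 and 85.3 FPKM in control and 123, 138 and 130 FPKM in Ras-induced cells, and the groups overlapped (0.28, adjusted p = 0.227). DKC1, the pseudouridine synthase dyskerin, and GAR1, which helps release the substrate, differed by 0.024 and 0.059 (adjusted p = 0.877 and 0.733). As a ratio within each library, NOP10 over the geometric mean of DKC1, NHP2 and GAR1 was 1.71 ± 0.0885 in control and 2.75 ± 0.0930 in Ras-induced cells (SD, n = 3). That is a log2 difference of 0.68, with an exact two-sided permutation p of 0.1, the smallest that 3 libraries against 3 allow. This ratio and those below were chosen after the values were seen.

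Of the abundant nucleolar proteins and regulators 1 of 7 was called higher (14.3%, beside 11.0% of all tested genes). MYBBP1A, a nucleolar protein that binds MYB, was at 19.7, 21.0 and 22.7 FPKM in control and 25.2, 28.99 and 29.4 FPKM in Ras-induced cells. The groups did not overlap, and the difference was 0.38 (SE 0.10, 95% interval 0.15 to 0.61, adjusted p = 0.0434). The call was lost after upper-quartile scaling (0.27, adjusted p = 0.135). Its exons share positions on the opposite strand with SPNS2, which was not among the tested genes. The library kit does not separate strands.

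LYAR, a nucleolar zinc-finger protein, was at 38.2, 33.7 and 34.0 FPKM in control and 39.5, 48.2 and 45.1 FPKM in Ras-induced cells. Its groups did not overlap, but it missed the threshold (0.32, SE 0.10, adjusted p = 0.0780). NPM1 was at 793, 884 and 865 FPKM in control and 844, 1104 and 978 FPKM in Ras-induced cells (0.20, adjusted p = 0.280). The lowest Ras-induced library lay below 2 of the control libraries. NCL (nucleolin), GNL3 (the GTPase nucleostemin), DDX21 (an RNA helicase of Pol I and Pol II transcription) and NOLC1 (the snoRNP chaperone Nopp140) had values from -0.11 to 0.14, with adjusted p from 0.389 to 0.862.

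All 11 small-subunit factors had a log2 fold change above 0 (beside 62.7% of all tested genes), though that of DDX10 was -0.06 after upper-quartile scaling, and UTP15 was called. UTP15, part of the complex that first binds the nascent precursor, was at 13.5, 14.2 and 13.7 FPKM in control and 17.7, 17.7 and 18.3 FPKM in Ras-induced cells. The groups lay well apart, with means of 13.8 ± 0.338 and 17.9 ± 0.363 FPKM (SD, n = 3), and the difference was 0.35 (SE 0.07, adjusted p = 0.0246; 0.25 and 0.0765 after upper-quartile scaling). UTP15 shares exon positions with ANKRA2 on the opposite strand, which was not called (0.29, adjusted p = 0.377).

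WDR43, a subunit of the same early complex and the most abundant of the 11, was at 33.9, 31.2 and 39.5 FPKM in control and 41.2, 44.01 and 44.2 FPKM in Ras-induced cells. Its groups did not overlap, and it was not called (0.30, adjusted p = 0.0890). NOP14, which joins the early precursor particle, was at 23.1, 23.1 and 24.3 FPKM in control and 26.2, 29.7 and 29.1 FPKM in Ras-induced cells. It too was separate between the groups and not called (0.26, adjusted p = 0.0758). RRP9, the protein that recognizes the U3 snoRNA, had separate groups as well (0.32, adjusted p = 0.0806).

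The other 7 small-subunit factors had overlapping groups. RRP12, WDR75 (of the same early complex as UTP15), TSR1 (a GTPase-like factor of late maturation), UTP20 (a large scaffold protein), NAT10 (the cytidine acetyltransferase of ribosomal RNA), BYSL (bystin) and DDX10 (an RNA helicase) differed by 0.044 to 0.28, with adjusted p from 0.228 to 0.881. NAT10 shows the spread within groups, at 16.1, 18.9 and 25.0 FPKM in control and 22.9, 20.0 and 26.7 FPKM in Ras-induced cells.

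Of the large-subunit factors 3 of 12 were called higher (25.0%, beside 11.0% of all tested genes). After upper-quartile scaling 1 was (8.33%, beside 6.58%). NOP16, a factor of the early large-subunit particle, was at 18.8, 19.9 and 21.5 FPKM in control and 28.2, 32.2 and 33.6 FPKM in Ras-induced cells. The means were 20.1 ± 1.34 and 31.4 ± 2.82 FPKM (SD, n = 3), a ratio of 1.56 and a log2 difference of 0.62 (SE 0.10, 95% interval 0.38 to 0.85, adjusted p = 0.0105). Without control replicate 2 the adjusted p was 0.0513. NOP16 lies at chr5:175810949-175815928 on the minus strand and shares exon positions with HIGD2A, which was also called higher (0.40, adjusted p = 0.0331), and with ARL10, which was not (0.04, adjusted p = 0.793). Both lie on the opposite strand, so reads of the shared positions cannot be assigned.

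PES1, BOP1 and WDR12 form the PeBoW complex, which is needed to process the large subunit's RNA. PES1 was at 46.2, 52.3 and 57.7 FPKM in control and 63.9, 73.5 and 71.8 FPKM in Ras-induced cells (0.42, SE 0.11, adjusted p = 0.0428). PES1 shares exon positions on the opposite strand with TCN2, which was not among the tested genes. BOP1 was at 20.3, 22.4 and 23.0 FPKM in control and 26.3, 34.3 and 29.6 FPKM in Ras-induced cells (0.43, SE 0.11, adjusted p = 0.0471). WDR12 was at 24.2, 24.0 and 26.4 FPKM in control and 28.1, 36.4 and 36.2 FPKM in Ras-induced cells (0.41, SE 0.12, adjusted p = 0.0611). The groups did not overlap for any of the 3 subunits, and the estimates lay within 0.03 of each other, but WDR12 fell on the other side of the threshold. After upper-quartile scaling the values were 0.31, 0.33 and 0.30 and none of the 3 was called (adjusted p = 0.130, 0.117 and 0.157).

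NIP7, which binds the precursor RNA, was higher in every Ras-induced library (44.9, 40.8 and 39.1 against 47.3, 51.0 and 47.6 FPKM) and was not called (0.22, adjusted p = 0.116). LAS1L, which is part of the endonuclease that cuts the spacer between large-subunit RNAs, was lower in every Ras-induced library (23.24, 24.0 and 24.3 against 20.0, 22.1 and 23.23 FPKM) and was not called either (-0.13, adjusted p = 0.334). The lowest control and the highest Ras-induced library were almost level. RRS1 and RRP1 (early large-subunit factors), RRP1B (a paralogue of RRP1), DDX18 (a helicase), MRTO4 (a homologue of a stalk protein) and NOP2 (a methyltransferase) had overlapping groups and values from 0.09 to 0.29. NOP16 over NOP2 was 0.598 ± 0.0487 in control and 0.844 ± 0.0434 in Ras-induced cells (log2 difference 0.50, exact two-sided permutation p = 0.1).

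**Figure D3:**
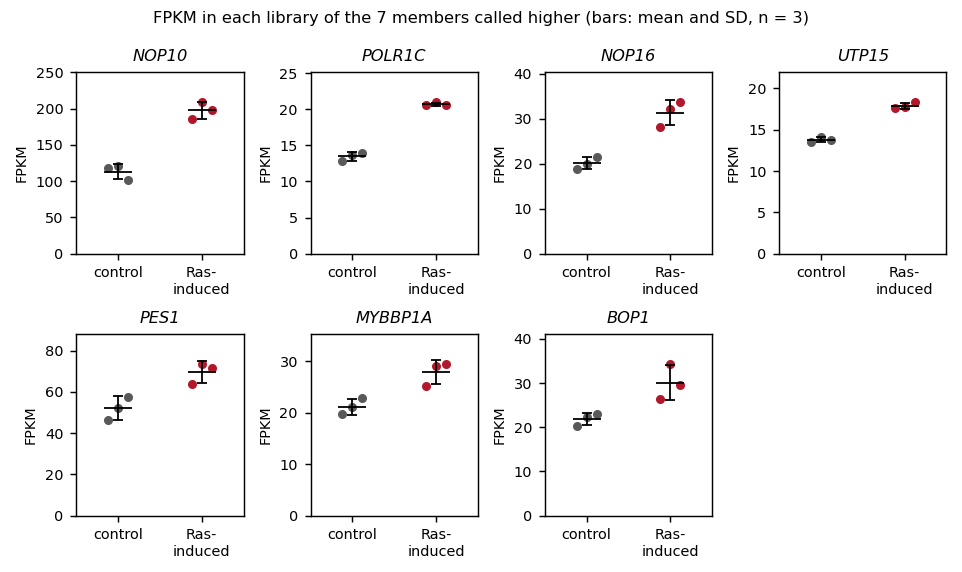
FPKM in each of the 3 control (grey) and 3 Ras-induced (red) libraries for the 7 genes called higher, with bars for the mean and SD, on linear axes from 0. The libraries of the groups do not overlap in any panel; NOP10 goes from 113 to 198 FPKM and POLR1C from 13.5 to 20.7 FPKM.

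Of the 7 RNA polymerase I genes POLR1C alone was called. POLR1C, a subunit of the assembly platform that Pol I shares with RNA polymerase III (Pol III), the enzyme that makes transfer RNAs, was at 12.8, 13.7 and 14.0 FPKM in control and 20.5, 21.0 and 20.5 FPKM in Ras-induced cells. The means were 13.5 ± 0.612 and 20.7 ± 0.250 FPKM (SD, n = 3), a ratio of 1.53 and a log2 difference of 0.58 (SE 0.08, 95% interval 0.40 to 0.76, adjusted p = 0.00642). The annotated gene spans chr6:43477440-43530156 on the plus strand and shares exon positions on the other strand with YIPF3 (0.17, adjusted p = 0.173) and XPO5 (-0.02, adjusted p = 0.959), neither of them called, and with LRRC73 and an unnamed gene, which were not tested.

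None of the listed subunits particular to Pol I was called. POLR1A, the largest catalytic subunit, was at 10.2, 11.8 and 13.0 FPKM in control and 10.9, 10.4 and 11.9 FPKM in Ras-induced cells (-0.06, adjusted p = 0.728). POLR1B was at 3.74, 4.37 and 4.46 FPKM in control and 4.22, 4.39 and 6.79 FPKM in Ras-induced cells (0.22, adjusted p = 0.431), with Ras-induced replicate 3 above the other 5 libraries. POLR1E, a subunit of the initiation module, was at 19.6, 22.5 and 25.5 FPKM in control and 17.8, 22.2 and 23.1 FPKM in Ras-induced cells (-0.09, adjusted p = 0.671). The groups overlapped in each. POLR1C over the geometric mean of POLR1A, POLR1B and POLR1E was 1.32 ± 0.0940 in control and 1.98 ± 0.278 in Ras-induced cells (log2 difference 0.58, exact two-sided permutation p = 0.1).

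The Pol I initiation factors were not called. UBTF, the factor that coats active ribosomal DNA and the most abundant of the 7 Pol I genes, was at 63.2, 57.8 and 66.5 FPKM in control and 66.0, 55.2 and 59.7 FPKM in Ras-induced cells (-0.05, adjusted p = 0.738). TAF1D, a subunit of the promoter selectivity factor SL1, was lower in every Ras-induced library (55.3, 56.6 and 53.3 against 46.9, 52.1 and 50.9 FPKM; -0.14, adjusted p = 0.247, and -0.25 with 0.0659 after upper-quartile scaling). RRN3, the growth-regulated factor that makes Pol I competent to initiate, was slightly higher in every Ras-induced library (31.6, 31.9 and 32.5 against 33.9, 33.4 and 35.5 FPKM; 0.09, adjusted p = 0.385). The direction of RRN3 turned under upper-quartile scaling (-0.01).

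Other polymerase genes, listed by textbook subunit composition, were set beside these. Both subunits that Pol I shares with Pol III alone were called higher. The second of them, POLR1D, was at 66.6, 65.8 and 57.8 FPKM in control and 80.9, 90.2 and 88.4 FPKM in Ras-induced cells (0.44, SE 0.09, adjusted p = 0.0201). POLR1D over the geometric mean of POLR1A, POLR1B and POLR1E was 6.22 ± 1.14 and 8.26 ± 0.957 (log2 difference 0.42, exact two-sided permutation p = 0.2). None of the 6 subunits of Pol I alone was called, with values from -0.09 to 0.43. The highest was ZNRD1 (0.43, adjusted p = 0.0802), the only one with an unadjusted limma p under 0.05. With same-numbered libraries taken as blocks, ZNRD1 was called higher (adjusted p = 0.0320). None of 8 Pol I factors was called, counting UBTF, RRN3 and TAF1D among them and leaving out PTRF, which is described below, and 0 had an unadjusted limma p under 0.05.

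Of 22 Pol III subunits and factors 8 were called higher (36.4%, beside 11.0% of all tested genes), among them POLR3G, POLR3K and MAF1, the repressor of Pol III. After upper-quartile scaling 4 were (18.2%, beside 6.58%). POLR3G was at 1.32, 2.06 and 2.65 FPKM in control and 4.94, 5.35 and 4.74 FPKM in Ras-induced cells (1.02, adjusted p = 0.0163), and POLR3K was at 5.96, 6.30 and 4.55 against 8.43, 9.57 and 10.0 FPKM (0.65, adjusted p = 0.0245). Of the 5 subunits shared by all 3 polymerases POLR2H was called (31.0, 32.2 and 36.4 against 48.5, 49.6 and 51.0 FPKM; 0.57, adjusted p = 0.00885). Of 8 Pol II subunits POLR2C was called (65.0, 66.6 and 56.5 against 82.0, 82.2 and 77.1 FPKM; 0.36, adjusted p = 0.0375, but 0.0762 after upper-quartile scaling). The difference between the classes was not tested.

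**Figure D4:**
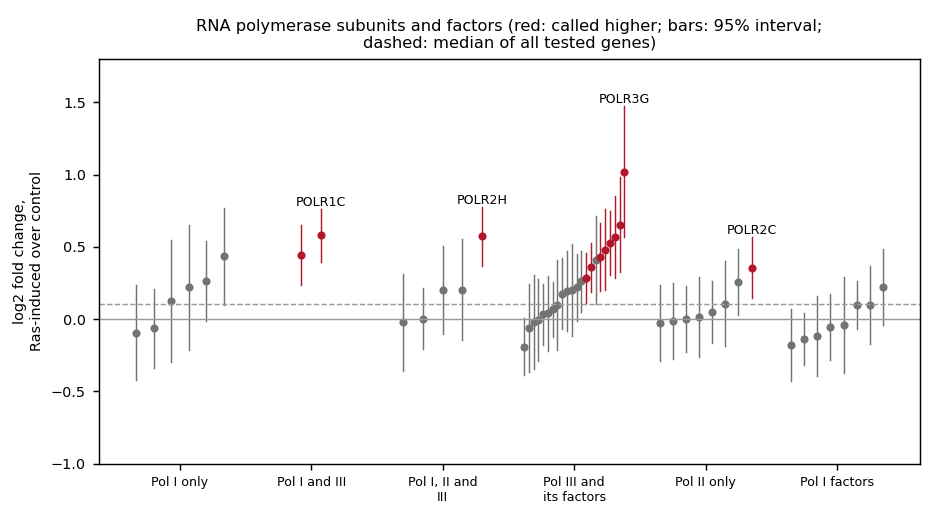
Log2 fold change (Ras-induced over control) with its 95% interval for polymerase subunits and factors by the enzyme they belong to; red points were called higher and the dashed line is the median of all tested genes. Both subunits shared by Pol I and Pol III are red, at 0.44 and 0.58, and all 6 subunits of Pol I alone and all 8 Pol I factors are grey.

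Beyond the 44, a further 118 genes of the pathway were listed by role, and all were tested. Of these 28 were called higher (23.7%, beside 11.0% of all tested genes) and 1 lower, with a median of 0.22. After upper-quartile scaling 15 were called higher (12.7%, beside 6.58%) and 1 lower. Small-subunit factors accounted for 10 of 44, large-subunit factors for 12 of 50, the RNA exosome, which trims precursor ends, for 5 of 14, and other Pol I genes for POLR1D alone among 10.

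The largest rises among small-subunit factors were UTP18 (31.6, 32.2 and 36.9 against 49.0, 54.7 and 52.8 FPKM; 0.62, adjusted p = 0.00841) and IMP3 (25.9, 26.0 and 24.8 against 39.0, 37.2 and 39.3 FPKM; 0.57, adjusted p = 0.00519), a protein of the U3 snoRNP. Among large-subunit factors they were RRP8 (7.81, 9.92 and 8.41 against 11.8, 11.8 and 14.3 FPKM; 0.49, adjusted p = 0.0433, but 0.0930 after upper-quartile scaling) and GRWD1 (22.0, 21.7 and 24.3 against 31.6, 32.4 and 31.5 FPKM; 0.47, adjusted p = 0.0119), a chaperone of the ribosomal protein uL3. Both pairs had separate groups. Among exosome genes they were EXOSC4 (10.6, 14.3 and 12.3 against 18.6, 29.7 and 23.9 FPKM; 0.89, adjusted p = 0.0242) and the cofactor MPHOSPH6 (40.0, 40.8 and 35.6 against 65.3, 71.3 and 65.4 FPKM; 0.78, adjusted p = 0.00378). The gene called lower was PTRF, a caveolar coat protein first described as a Pol I transcript release factor, at 322, 345 and 320 FPKM in control and 253, 269 and 242 FPKM in Ras-induced cells (-0.37, adjusted p = 0.0221).

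MYC and its partners differed in direction. MYC was at 9.52, 10.0 and 11.7 FPKM in control and 6.98, 5.51 and 8.70 FPKM in Ras-induced cells. It was lower in every Ras-induced library without passing the test (-0.52, SE 0.17, adjusted p = 0.0780). MYC was called lower after quantile normalization (adjusted p = 0.0486) and with same-numbered libraries taken as blocks (adjusted p = 0.0492). MXD3, which competes with MYC for MAX, fell from 20.6, 23.0 and 18.7 to 7.80, 11.1 and 6.20 FPKM (-1.25, adjusted p = 0.0102). MXI1, a competitor of the same kind, was at 0.773, 0.981 and 1.48 against 5.15, 1.83 and 2.70 FPKM, higher in every Ras-induced library without passing the test (0.96, adjusted p = 0.0798). MLX, a related partner protein, rose from 24.6, 26.5 and 25.5 to 40.2, 44.3 and 45.2 FPKM (0.74, adjusted p = 0.00378). MAX was at 9.09, 9.07 and 5.57 against 9.23, 11.0 and 7.58 FPKM, and its groups overlapped (0.22, adjusted p = 0.499).

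When ribosome assembly fails, free RPL5 and RPL11 are known to bind MDM2, and the genes of this stress response were set beside the 44. CDKN2A was at 9.05, 8.61 and 9.20 FPKM in control and 17.5, 16.0 and 15.7 FPKM in Ras-induced cells (0.80, SE 0.09, adjusted p = 0.00368), a gene-level value that cannot separate the locus's CDK inhibitor from ARF, which acts in the nucleolus. CDKN1A, the CDK inhibitor p21, was at 4.58, 3.91 and 5.54 FPKM in control and 31.0, 8.24 and 14.6 FPKM in Ras-induced cells (1.56, SE 0.42, adjusted p = 0.0496; 0.0671 after upper-quartile scaling). Its Ras-induced libraries spanned 8.24 to 31.0 FPKM, all above the controls.

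The genes of this group that follow were not called. MDM2 was at 18.3, 23.2 and 22.2 against 23.2, 20.5 and 25.1 FPKM (0.11, adjusted p = 0.560). RPL5 was at 621, 646 and 603 against 651, 785 and 737 FPKM (0.21, adjusted p = 0.155), RPL11 at 720, 724 and 647 against 751, 869 and 799 FPKM (0.21, adjusted p = 0.156) and RPL23 at 526, 546 and 474 against 574, 641 and 612 FPKM (0.24, adjusted p = 0.104). The groups of the ribosomal protein genes did not overlap.

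Within groups, many of the 44 genes shared the same lowest and the same highest library. In control cells replicate 1 was the lowest library for 30 of the 44 genes (68.2%, beside 28.9% of all tested genes) and replicate 3 the highest for 30 (68.2%, beside 31.0%). In Ras-induced cells replicate 1 was the lowest for 32 (72.7%, beside 30.3%), and replicate 3 was the highest for 25 (56.8%, beside 27.2%) and replicate 2 for 18. As medians over the 44 genes of the log2 ratio to the group mean, the control libraries stood at -0.080, 0.0016 and 0.079 and the Ras-induced libraries at -0.10, 0.025 and 0.077. For scale, the median fold change of these genes exceeded that of all tested genes by 0.11. Their coefficients of variation had medians of 7.19% in control and 8.36% in Ras-induced cells, beside 12.1% and 11.7% over all tested genes.

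**Figure D5:**
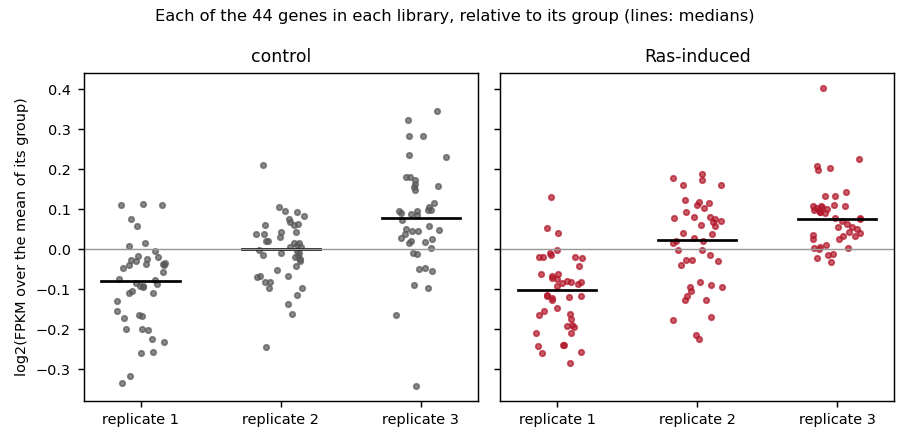
Log2 ratio of each gene's FPKM to the mean of its group, for each library of the control (grey) and Ras-induced (red) groups; each point is 1 of the 44 genes and black lines are medians. The points of replicate 1 lie mostly below 0 in both groups (medians -0.080 and -0.10) and those of replicate 3 mostly above (0.079 and 0.077).

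Fold change also went with the length of the gene's annotated exons, in the whole table. Among tested coding genes the median was 0.23 for those of up to 2000 exonic bases, of which 23.0% were called higher, 0.17 (15.7%) for those of over 2000 to 4000, 0.10 (11.7%) for those of over 4000 to 8000 and 0.04 (8.10%) above 8000. The 44 genes had 1 of 6, 2 of 10, 4 of 17 and 0 of 11 called higher in the same bins. NOP10, with 1576 exonic bases, was in the shortest bin, NOP16 (2804) in the second and POLR1C (5505) in the third. The part of exon length and of the mitotic gene level in these results was not tested. Library scaling was varied, as given above, but which scaling is right was not tested.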

How the data were processed

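RNA-seq values of 6 libraries of mitotic ERRAS cells were used. The authors trimmed reads with Trim Galore 0.3.0, aligned them to hg19 with TopHat2 and Ensembl junctions, and deposited FPKM values per gene and library made with Cufflinks. Their library kit selects poly(A) RNA and does not mark strand. Column names give the group and a number but not the sample. The table's 18 columns without a name were not used; 120 genes with more than 6 values were left out (no member among them), as was 1 repeated header line. A deposited cuffdiff comparison (group FPKM, log2 fold change, test statistic, p and q) holds the authors' own results and was not used.

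FPKM is not a count, so log2(FPKM + 1) was fitted with limma 3.58.1 in R 4.3.3 (lmFit, eBayes with trend), two-sided, without a replicate block, for the 13993 genes averaging 1 FPKM or more. The procedure was tested on simulated data. Ratios were compared by exact permutation in scipy 1.17.1. Alternatives were a pseudocount of 0.1, no filter, a mean of at least 5 FPKM, quantile and upper-quartile scaling, no trend, a replicate block, a log2 difference of 0.5 or more either way, and each library left out. Coordinates and exon overlaps are from GENCODE lifted to GRCh37, the build of hg19, in a later annotation. The 44 genes and all lists were chosen with earlier results of these data known. Values per library are given for the 2 largest rises and falls among called genes of each role or list, the highest-level gene of each role, those of the 44 genes with an adjusted p from 0.03 to 0.08, MYC, the nucleolar stress list and HRAS; other values were added where a comparison needed them, after they were seen. Values of some listed genes are not reported here.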

Additional observations from a re-analysis of the deposited data

How the results depend on the processing

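NOP10 and POLR1C were called higher under all 13 alternatives, with adjusted p from 0.000594 to 0.0297 and from 0.00344 to 0.0365. NOP16 was called under 12, with adjusted p from 0.00639 to 0.0513, and was lost without control replicate 2. RRP8 was called under 2 and POLR2C under 4. UTP15 was called under 5, PES1 and MYBBP1A under 4 and BOP1 under 3; the cause was not tested. WDR12 was called with genes of at least 5 FPKM, where 8 of the 44 were called, and without Ras-induced replicate 1. The number called, all of them higher, was 7, and it was 3 with no filter on low values, with quantile or upper-quartile scaling, or with a fold limit (0.5 or more on the log2 scale, in either direction), and 4 without a mean-variance trend. With each library left out it was 2 to 7 (2 without control replicate 2; 3 without control replicate 1, Ras-induced replicate 2 or Ras-induced replicate 3; 4 without Ras-induced replicate 1). None of the 44 was called lower under any alternative. The median of the 44 moved from 0.22 to 0.11 with upper-quartile scaling, and the log2 fold change of 8 genes changed sign there, none of them called.

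Pathway genes called numbered 29, and 9 without a filter, 15 with quantile and 16 with upper-quartile scaling, 8 with the fold limit and 5 to 21 with a library left out. The contrast genes (the other polymerases, the MYC network and the nucleolar stress list) numbered 14, and 9 without a filter, without a trend or with the fold limit, 8 with upper-quartile scaling, and 3 to 10 with a library left out. Over all genes 2336 were called (1543 higher and 793 lower), 2022 (921 and 1101) after upper-quartile scaling, 2153 (1044 and 1109) after quantile normalization and 860 to 1872 with a library left out.

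Over all 13993 tested genes the deviations of same-numbered libraries had correlations of -0.0027, 0.043 and 0.048. Those of differently numbered libraries lay from -0.068 to 0.031, below the values 0.043 and 0.048. All were small, and the numbers were not taken to pair the samples. Over the 44 genes the same-numbered libraries had like medians (-0.080 and -0.10, 0.0016 and 0.025, 0.079 and 0.077 on the log2 scale). With a replicate block 7 of the 44 were called, and 25 of the pathway and 14 of the contrast genes, and HRAS had an adjusted p of 0.0526. Under the block ZNRD1, a subunit of Pol I alone, was called higher (0.43, adjusted p = 0.0320), so 1 of those 6 subunits was called, and MYC was called lower (-0.52, adjusted p = 0.0492), while RRP8 was not called (adjusted p = 0.0601). With no counts the depth is unknown, so no counting error is given. Where a printed interval includes no change, the differences within it could not be told apart from none with 3 libraries a group.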

Other observations

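Several of the 44 genes host snoRNAs in their introns. The annotation places 31 such RNAs in 9 of them, 30 of which had a row in the expression table. Of these 22 were listed at 0 in every library and 7 at 0 in some. SNORA18, in TAF1D, was above 0 in all, at 13.9, 6.83 and 0.380 FPKM in control and 18.1, 22.8 and 13.7 FPKM in Ras-induced cells. Mature snoRNAs lack the poly(A) tails that the library kit selects, and these values are given without a comparison. Among the pathway genes, DHX37, a helicase that releases the U3 snoRNA, was listed at 0 in Ras-induced replicate 1 and at 16.8 and 16.1 FPKM in the other Ras-induced libraries, beside 11.6, 12.4 and 14.9 FPKM in control.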
